A study of Mus musculus with 2 samples.

Results

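The SPARC family of matricellular genes was described in cells of the mouse knee joint, from 2 single-cell libraries. Its 7 members are Sparc, Sparcl1, Smoc1, Smoc2, Spock1, Spock2 and Spock3, taken by symbol from 32286 features; each symbol was present in both libraries. The members were selected on earlier results from these data, in which Sparc was already known to be much lower in the trace library, so that difference is given as a description and not as a finding. Both libraries came from Procr-CreER;tdTomato mice, in which a tamoxifen-dependent Cre driven by Procr switches on tdTomato, a heritable red fluorescent protein, and all mice received tamoxifen at 4 weeks of age. The trace library held cells taken 4 weeks after tamoxifen, and the pulse library held cells taken 2 days after it. Each library pooled 3 mice and each group was 1 library, so no spread between animals was available and no test was made. In both libraries live tdTomato-positive cells negative for CD31, CD45 and Ter119 had been sorted from knee joint cartilage; the protocol also names digested periosteum, and which cells came from it is not stated. Cells labelled in the pulse library and labelled cells or their descendants in the trace library therefore differed in the age of the mice as well as in the time since labelling, and these cannot be told apart. The sex of the pooled mice also followed the library: Xist and Ddx3y gave 14149 and 13 UMIs (unique molecular identifiers, each counting 1 captured RNA molecule) in trace cells, against 3 and 4246 UMIs in pulse cells. Sex and time cannot be told apart either.

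SPARC family proteins are secreted, calcium-binding matrix proteins that share an extracellular domain with paired EF hands and a follistatin-like domain. They are called matricellular because they modulate how cells meet the matrix rather than bearing load themselves. SPARC, also called osteonectin, binds fibrillar and basement membrane collagens and takes part in procollagen processing. It is abundant in bone and in mineralizing tissue, and hypertrophic chondrocytes, which make collagen X from Col10a1, are a known source. SPARCL1 (hevin) is a close relative found around blood vessels and in connective tissue. SMOC1 and SMOC2 are modular calcium-binding proteins, and SMOC1 is known to limit BMP signalling. SPOCK1, SPOCK2 and SPOCK3 (testicans) are proteoglycans that have been linked to the control of proteases.

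By GENCODE M21 on GRCm38 the 7 genes lie on 7 chromosomes. Sparc (ENSMUSG00000018593) spans chr11:55394500-55423183 on the minus strand and overlaps no other annotated gene. Smoc2 (ENSMUSG00000023886) spans chr17:14279506-14404790 on the plus strand and has 1 antisense gene within it. Smoc1 (ENSMUSG00000021136) spans chr12:81026808-81186414 on the plus strand and holds 1 microRNA gene. Sparcl1 (ENSMUSG00000029309) spans chr5:104079111-104113733 on the minus strand and has 1 antisense partner, Gm26703. How the counting treated strand is not given in the sources used here, so reads of an antisense partner of Sparcl1 or Smoc2 could not be told apart from the gene's own. Sparc was the member with the highest level in both libraries, and its start region is shown so that the gene behind that level is in view. The 250 bases before its RefSeq start (GRCm38.p6, chr11:55420081-55420330, minus strand) read as follows, with the run matching CTCTCTCT in capitals.
Sparc start region: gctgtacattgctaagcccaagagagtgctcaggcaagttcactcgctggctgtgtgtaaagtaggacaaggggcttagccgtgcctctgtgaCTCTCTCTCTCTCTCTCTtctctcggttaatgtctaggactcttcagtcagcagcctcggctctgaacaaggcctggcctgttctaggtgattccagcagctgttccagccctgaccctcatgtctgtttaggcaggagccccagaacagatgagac
The run covers 18 bases, 157 to 140 bases before the start. A CTCTCTCT match on either strand, with overlapping matches counted once per region, was present in 3.53% of 32851 RefSeq start regions of the same length. The motif TATAAA had no match on either strand in this window and was present in 12.4% of all regions. The motif TGANTCA had none either and was present in 6.75% of regions. The motif TGTGGT likewise had none and was present in 14.1%. The GENCODE gene reaches further upstream than this RefSeq start, and the counts do not say which start was used.

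After cells with fewer than 500 genes or more than 10% mitochondrial UMIs were set aside, the trace library kept 9247 of 10423 cell barcodes with a median of 3645 UMIs per cell, and the pulse library kept 6533 of 6863 with a median of 2837. The libraries shared 16 barcodes. Cells were assigned by counting detected marker genes, with no member of the family and no Col10a1 among the markers. Surface chondrocytes carry Prg4 (lubricin), Cytl1, Clu and Creb5 with cartilage genes such as Acan and Col2a1, and numbered 4464 in trace and 3860 in pulse. Deeper-zone chondrocytes, with the type IX collagen genes and matrilins, numbered 140 and 653; cells with many markers of both zones (mixed-zone) numbered 97 and 223. Synovial lining numbered 821 in trace and 290 in pulse, loose connective tissue 500 and 140, and cells defined by Npy and Angptl7 267 and 209. Osteoblast-gated cells numbered 106 and 23, mural 203 and 19, endothelial 217 and 39, and leukocyte-gated cells 427 and 5. The labels call the cells superficial, and the surface gate held 48.3% of kept trace cells and 59.1% of kept pulse cells, with all 8 surface and all 8 cartilage markers detected in each library. The other gates show that the sort also held other cell types. In all, 78.5% of trace cells and 83.6% of pulse cells passed 1 gate only. Ribosomal RNA-associated transcripts (Gm42418, AY036118, Cmss1, Gphn, Camk1d and Lars2) took 8.89% of UMIs in trace cells and 0.961% in pulse cells.

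Sparc was read in almost every chondrocyte of both libraries, and its level separated the surface cells of the libraries much more than the deeper cells. Levels below are CPM, a gene's UMIs summed over the cells of a gate, per 1000000 UMIs of those cells. Intervals are exact 95% Poisson intervals, or Clopper-Pearson intervals for shares of cells; they cover counting error only and not differences between mice. In surface chondrocytes Sparc stood at 4449 CPM in trace (4421 to 4477; 97170 UMIs) and 37170 CPM in pulse (37070 to 37280; 459757 UMIs). The trace-over-pulse ratio was 0.120 (0.119 to 0.121), an 8.36-fold lower level in trace. Sparc ranked first of the 6236 genes compared by level in pulse surface cells and 14th in trace surface cells. Of those 6236 genes, 15 had a lower trace-over-pulse ratio.

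In deeper-zone chondrocytes Sparc was at 17270 CPM in trace (17010 to 17540) and 17450 CPM in pulse (17330 to 17560), a ratio of 0.990 (0.974 to 1.01). The interval held 1, so no difference was detectable beyond counting error. Scaled by the median ratio of all genes in place of the total, the log2 ratio was 0.39. Mixed-zone chondrocytes lay between, with 13860 CPM in trace and 40540 CPM in pulse, a ratio of 0.342 (0.336 to 0.349). In trace the order of levels ran from deeper-zone to mixed-zone to surface cells; in pulse the mixed-zone and surface cells stood above the deeper-zone cells. No interval of these zone levels overlapped the next within a library. Surface marker genes summed to 66170 CPM in trace surface cells and 30920 CPM in pulse surface cells, and deeper-zone markers to 542.5 and 1168 CPM in the same cells. Leukocyte and erythroid markers in the surface gate summed to 270.8 and 168.7 CPM in trace, against 38.97 and 12.69 CPM in pulse, and osteoblast markers to 46.93 and 47.06 CPM; the part of these in the Sparc difference was not tested.

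**Figure D1:**
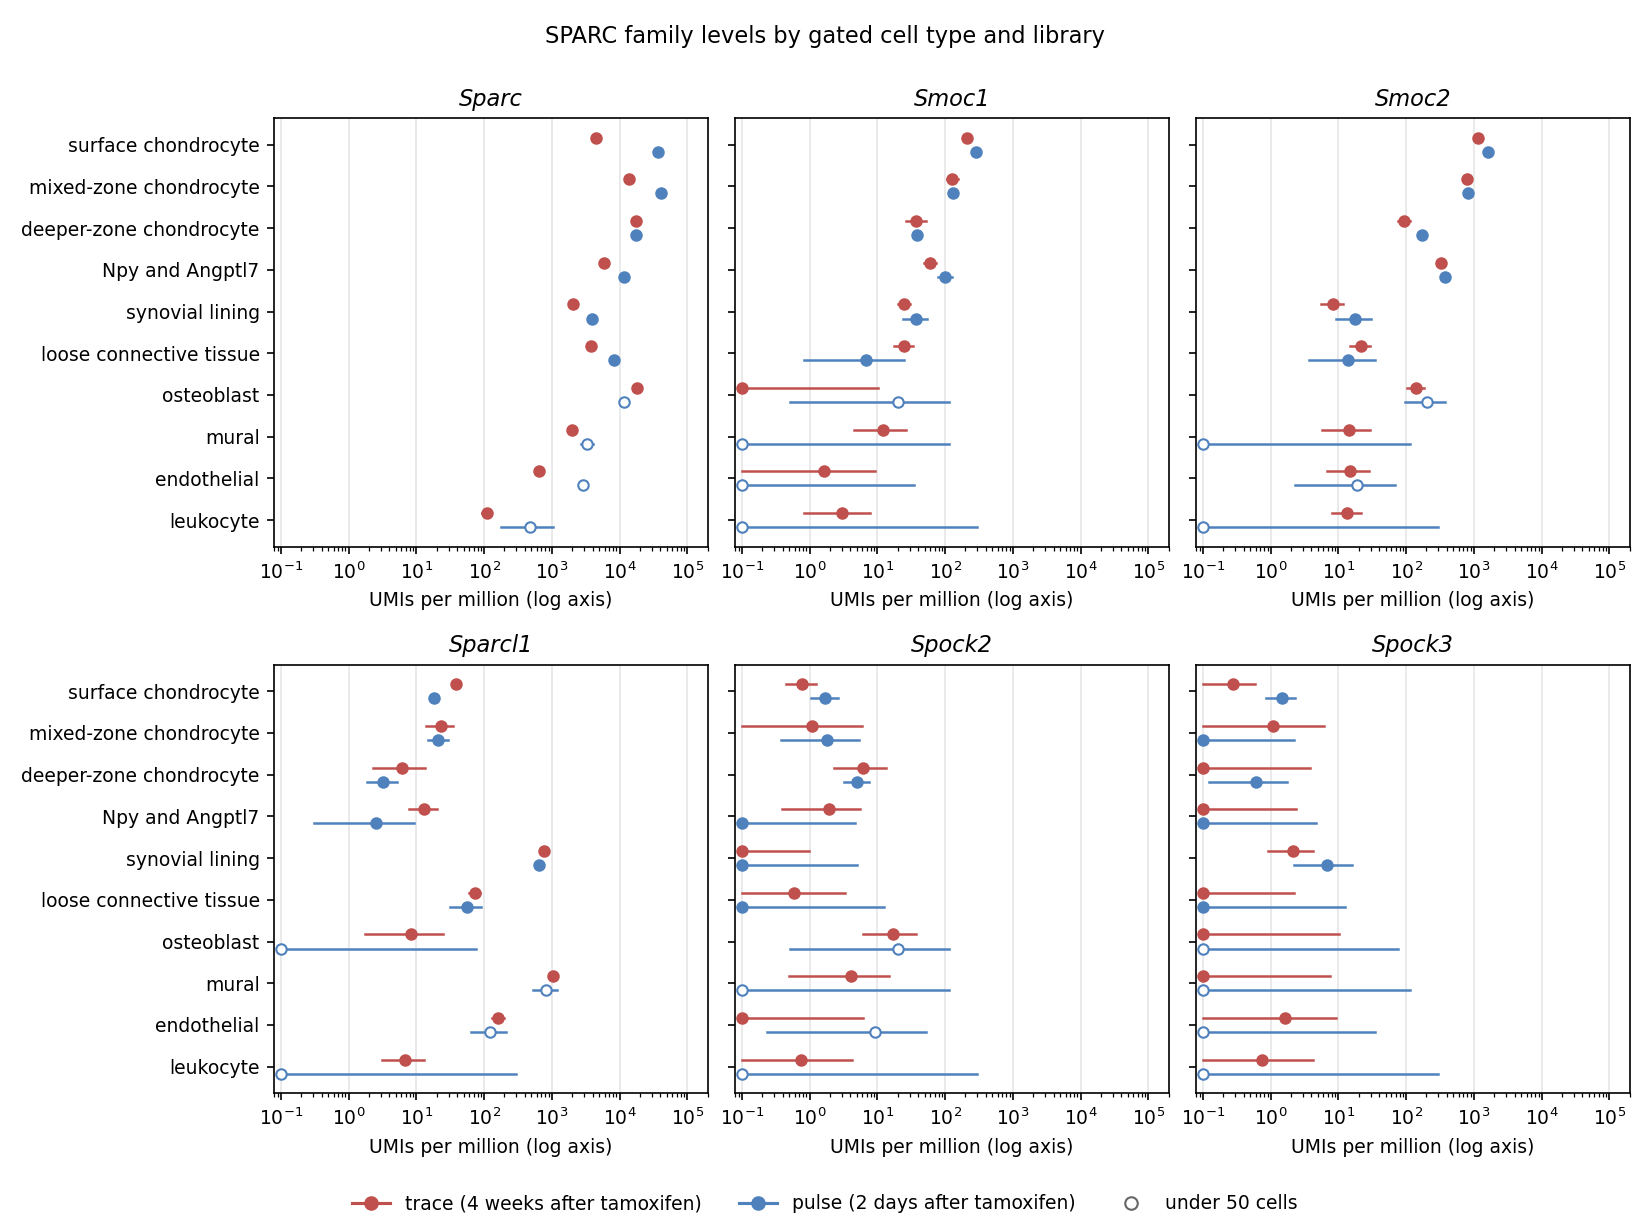
Levels of 6 family members (CPM, log axis) in each gated cell type, with trace above pulse in each row, exact 95% counting intervals as lines, open points for gates under 50 cells and values of 0 drawn at the left edge. Sparc reaches 4449 CPM in trace and 37170 CPM in pulse surface cells but 17270 and 17450 CPM in deeper-zone cells; Sparcl1 is highest in mural and synovial lining cells.

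Outside the chondrocyte gates, Sparc was lower in trace in each of the gates with 50 or more cells in both libraries, by smaller factors than at the surface. Synovial lining cells had 2059 CPM in trace (2014 to 2106) and 3852 CPM in pulse (3712 to 3996), a ratio of 0.535. Loose connective tissue had 3747 CPM in trace and 8349 CPM in pulse, a ratio of 0.449. Npy and Angptl7 cells had 5828 CPM in trace and 11510 CPM in pulse, a ratio of 0.507. That gate set no limit on chondrocyte markers and can hold chondrocytes, so its ratio does not stand for cells other than chondrocytes. For comparison, cartilage markers summed to 13990 CPM in trace and 18780 CPM in pulse surface chondrocytes. Cartilage markers also summed lower in trace in these gates: 288.3 CPM in trace and 744.4 CPM in pulse lining, 928.3 and 1877 CPM in loose connective tissue, and 9574 and 15400 CPM in Npy and Angptl7 cells. Their part in these Sparc levels was not tested. Osteoblast-gated cells had 18070 CPM in 106 trace cells and 11780 CPM in 23 pulse cells, the 1 gate with a higher Sparc level in trace. Endothelial cells had 653.5 CPM in trace and 2903 CPM in 39 pulse cells. Leukocyte-gated cells had the lowest Sparc level and serve as the background of free RNA: 109.3 CPM in trace, with a Sparc UMI in 18.3% of 427 cells, and 6 UMIs in 5 pulse cells. Their median depth was 2256 UMIs in trace, against 4399 UMIs in trace surface chondrocytes, of which 96.0% had a Sparc UMI.

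**Figure D2:**
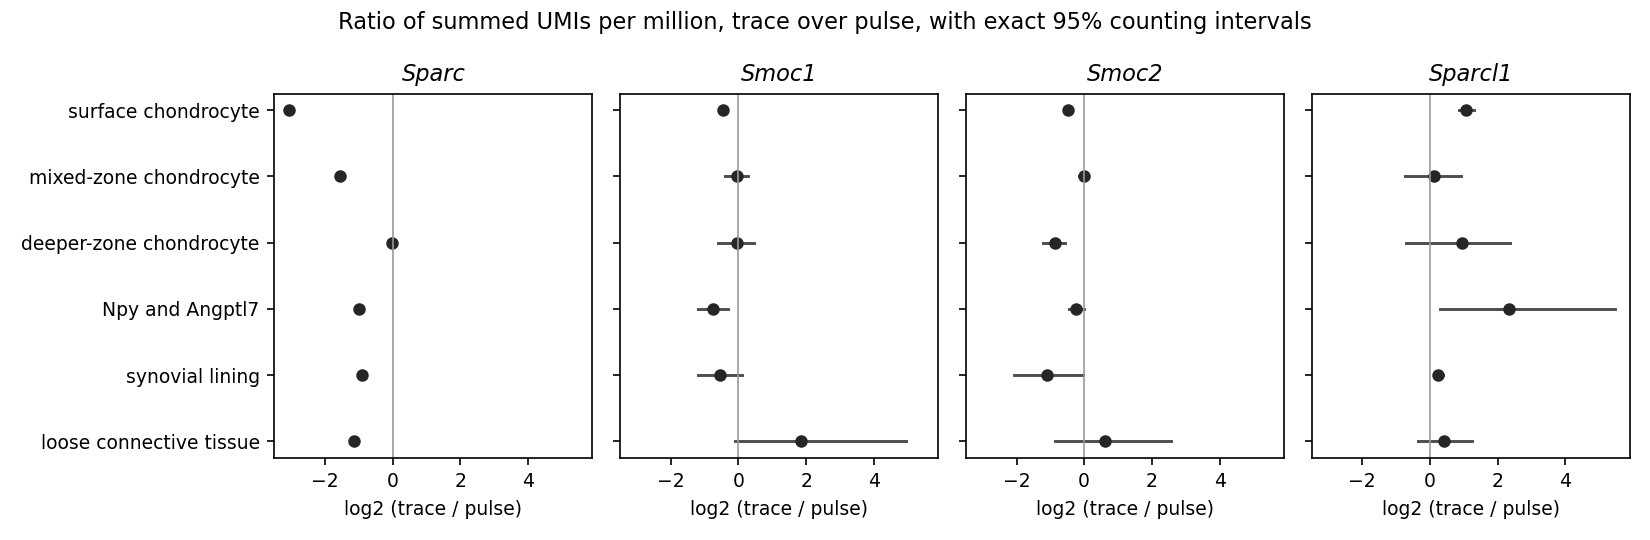
Trace-over-pulse ratios (log2) of 4 members in the 6 gates with at least 50 cells in both libraries, with exact 95% counting intervals. The Sparc ratio is -3.06 in surface chondrocytes, -1.55 in mixed-zone and -0.01 in deeper-zone chondrocytes; Smoc1, Smoc2 and Sparcl1 stay closer to 0 in surface cells.

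The Sparc difference at the surface was spread over most cells and not carried by a few. Per 10000 UMIs of a cell, the median over surface chondrocytes was 26.5 Sparc UMIs in trace (quartiles 11.9 and 50.9) and 224.4 in pulse (quartiles 83.7 and 497.4). The upper quartile in trace thus lay below the lower quartile in pulse. Sparc made up at least 1% of a cell's UMIs in 9.03% of trace surface cells (8.203 to 9.907%) and 70.8% of pulse surface cells (69.4 to 72.3%). It made up at least 5% in 9 of 4464 trace cells and 964 of 3860 pulse cells. After each cell was thinned to 2000 UMIs, a Sparc UMI was found in 92.6% of 4011 trace cells and 99.4% of 3083 pulse cells, with 453 trace and 777 pulse cells too shallow to be thinned. The ratio of trace over pulse was 0.137 in surface cells with 500 to 2000 UMIs, 0.133 from 2000 to 3000, 0.111 from 3000 to 4500, 0.0981 from 4500 to 7000 and 0.113 above 7000. Among deeper-zone cells the medians per 10000 UMIs were 142.3 in trace (quartiles 90.1 and 234.3) and 141.6 in pulse (quartiles 98.6 and 203.1).

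Against all genes, a 2-fold change between libraries was uncommon in the higher direction and more common in the lower. Genes that reached 20 CPM in either group were compared. In surface chondrocytes 2.34% of 6236 genes were 2-fold or more higher in trace and 8.85% were lower, with a median log2 ratio over all genes of -0.23. Scaled by the median ratio, 282 genes were higher and 359 lower, against 146 and 552 scaled by the total. Of the 7 members 4 reached 20 CPM there: Sparcl1 was 2-fold higher, Sparc was 2-fold lower, and Smoc1 and Smoc2 were within 2-fold. Sparcl1 was compared only because it reached 20 CPM in trace (39.1 CPM, against 18.5 CPM in pulse), so the floor itself favoured a higher call. In deeper-zone cells 3.21% of genes were higher and 20.7% lower, and none of the 3 members compared (Sparc, Smoc1, Smoc2) was past 2-fold. In synovial lining 1.84% were higher and 10.9% lower, and none of the 3 members compared (Sparc, Sparcl1, Smoc1) was past 2-fold. In loose connective tissue 4.23% were higher and 16.3% lower; Sparc was past 2-fold lower there, though not when scaled by the median ratio (log2 -0.83). Smoc1 was past 2-fold higher there, with 24.8 CPM in trace and 6.88 CPM in pulse, but the pulse value rests on 2 UMIs and the interval of the ratio, 0.939 to 30.8, held 1. It was also compared only because it reached 20 CPM in trace. Sparcl1 and Smoc2 were within 2-fold there.

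**Figure D3:**
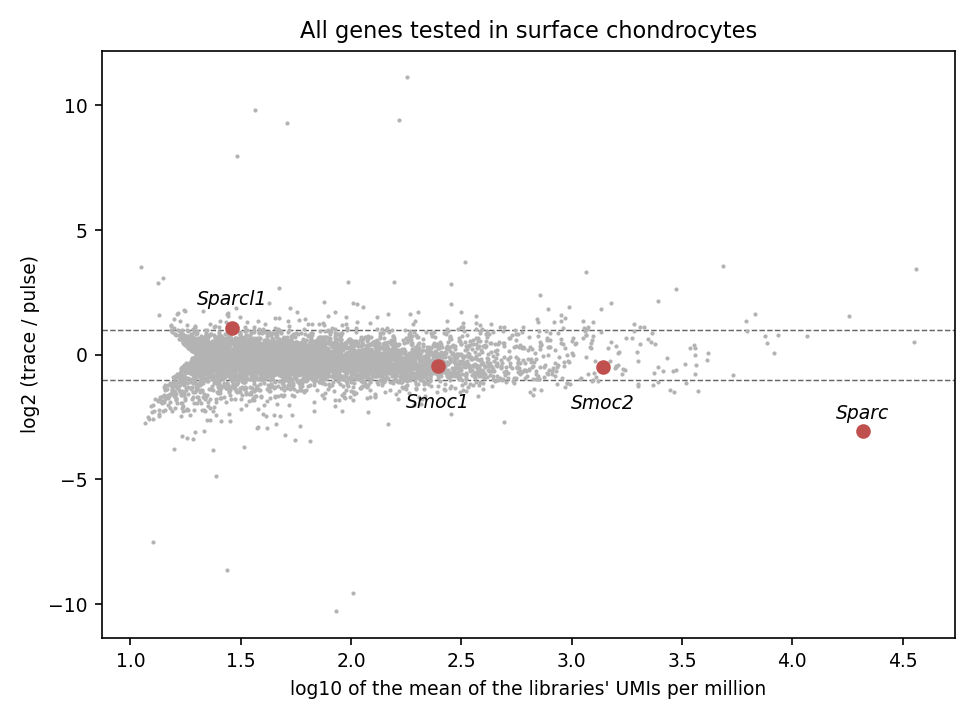
Log2 trace-over-pulse ratio against the log10 mean level for the 6236 genes compared in surface chondrocytes, with the 4 members that reached 20 CPM in red and dashed lines at 2-fold. Sparc, at a log2 ratio of -3.06, lies at the high end of the level axis and below nearly all genes. Smoc1 and Smoc2 lie within the lines. Sparcl1, which reached 20 CPM in trace only, lies just above the upper one.

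Col10a1 encodes collagen X, the collagen of hypertrophic cartilage, and surface chondrocytes were divided at 4 Col10a1 UMIs per cell. Sparc was slightly lower in Col10a1-high than in Col10a1-low cells of the trace library, and past 2-fold higher in Col10a1-high cells of the pulse library. Trace Col10a1-high cells (1088, 24.4% of the gate) had 3866 Sparc CPM and trace Col10a1-low cells (3376) had 4699 CPM, a high-over-low ratio of 0.823 (0.811 to 0.835). Pulse Col10a1-high cells (1420, 36.8% of the gate) had 53950 CPM and pulse Col10a1-low cells (2440) had 25080 CPM, a ratio of 2.15 (2.14 to 2.16). Within the Col10a1-high cells Sparc was 13.95-fold lower in trace than in pulse, and within the Col10a1-low cells 5.34-fold lower.

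In raw UMIs per cell, the pulse classes were shifted and the trace classes overlapped almost fully. Trace Col10a1-high cells had a median of 11 Sparc UMIs (quartiles 4 and 24, highest 572), and trace Col10a1-low cells had a median of 11 (quartiles 5 and 24, highest 990). Pulse Col10a1-high cells had a median of 145 Sparc UMIs (quartiles 53 and 281, highest 1418), and pulse Col10a1-low cells had a median of 41 (quartiles 15 and 99, highest 817). Per 10000 UMIs the medians were 19.8 in trace high and 29.2 in trace low cells, and 451.7 in pulse high and 159.8 in pulse low cells. On that scale the trace high class lay lower, with quartiles of 8.25 and 41.7 against 13.1 and 54.1 in the low class. Trace high cells were also deeper, with a median of 5504 UMIs against 4121 in trace low cells. Cells without a Sparc UMI were 4.60% of trace high cells (3.43 to 6.01%) and 3.85% of trace low cells (3.23 to 4.56%), against 0.352% of pulse high cells (0.114 to 0.820%) and 0.738% of pulse low cells (0.438 to 1.16%). Sparc took at least 5% of the UMIs in 0.184% of trace high and 0.207% of trace low cells, against 45.8% of pulse high and 12.9% of pulse low cells. Just at the division, cells with 4 and with 3 Col10a1 UMIs had medians of 13.7 and 15.6 Sparc UMIs per 10000 in trace (71 and 69 cells), against 303.7 and 185.0 in pulse (60 and 84 cells).

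**Figure D4:**
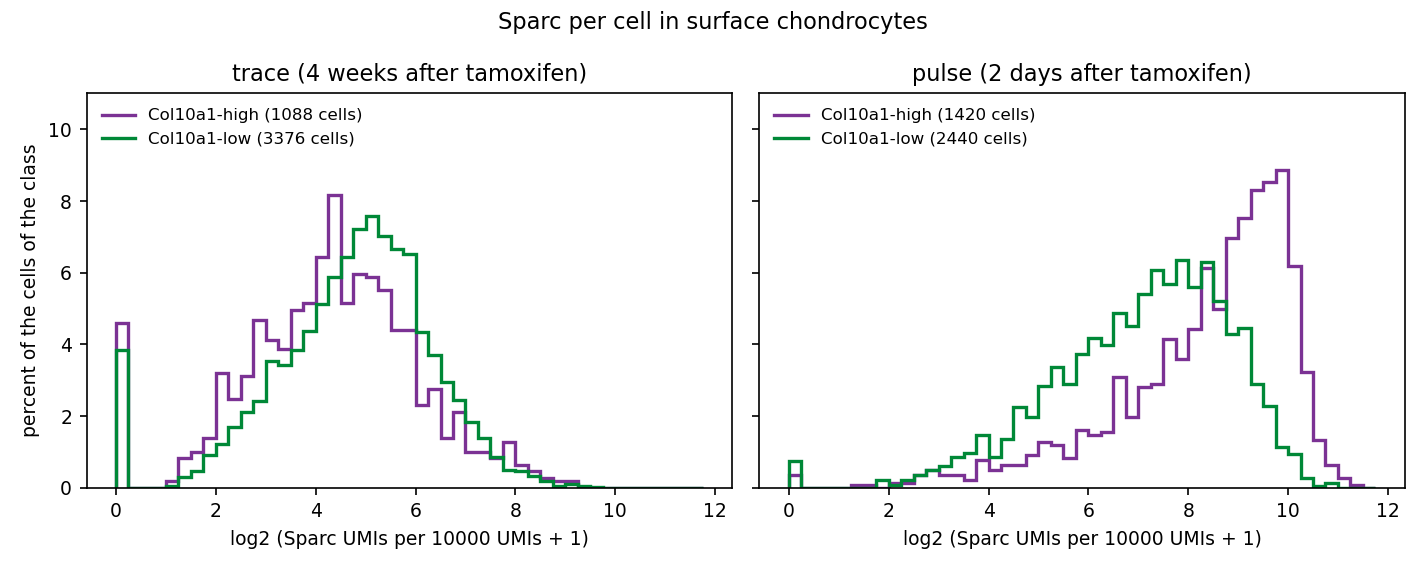
Distribution over surface chondrocytes of log2 (Sparc UMIs per 10000 UMIs + 1), as percent of the cells of each class, for Col10a1-high and Col10a1-low cells, trace on the left and pulse on the right. The classes overlap in trace (medians 19.8 and 29.2 UMIs per 10000), while in pulse the high class lies to the right of the low class (medians 451.7 and 159.8).

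Graded by Col10a1 the libraries also differed in shape. In trace the median Sparc per 10000 UMIs was 30.2 in cells with no Col10a1 UMI, 23.6 at 1 UMI, 15.2 at 2 to 3, 14.6 at 4 to 7, 17.1 at 8 to 15, 21.3 at 16 to 31 and 22.4 at 32 or more. In pulse it was 155.6, 166.6, 216.3, 230.6, 256.9, 461.1 and 647.8 over the same bins. The trace values thus dipped in the middle bins, and the pulse values climbed in every step. Median depth also climbed, with 4052 UMIs per cell in the first and 6437 in the last trace bin, and 2675 in the first and 4088 in the last pulse bin. Within bands of cell depth the pulse high-over-low ratio ran from 1.70 (above 7000 UMIs) to 2.32 (under 2000 UMIs). In trace it was 0.970 under 2000 UMIs (0.854 to 1.10), 1.07 from 2000 to 3000 (1.00 to 1.14) and 1.01 from 3000 to 4500 (0.970 to 1.05), and 0.799 and 0.706 in the bands from 4500 to 7000 and above 7000. In sums over the cells of a band, the lower Sparc of trace Col10a1-high cells was therefore seen at 4500 or more UMIs and not below. Medians over cells were not taken by band.

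**Figure D5:**
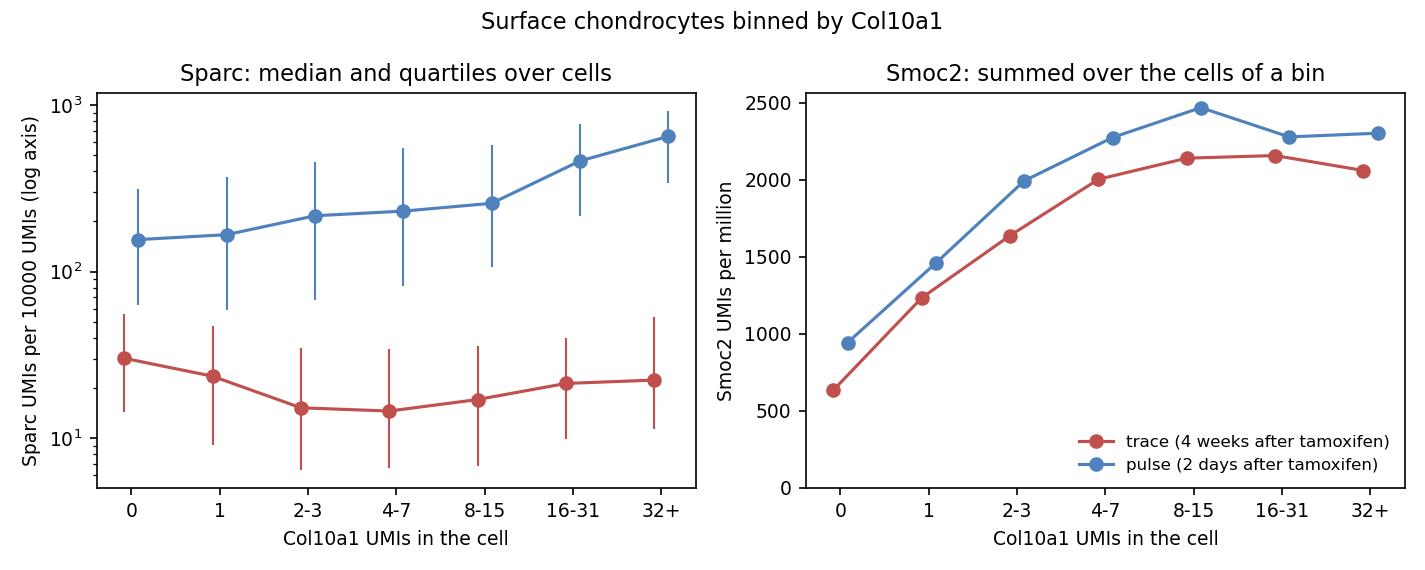
Surface chondrocytes binned by Col10a1 UMIs per cell: on the left the median of Sparc UMIs per 10000 UMIs (log axis, lines spanning the quartiles over cells), on the right Smoc2 CPM. Sparc climbs with Col10a1 in pulse, to 647.8, and not in trace, where it is 30.2 at 0 Col10a1 UMIs and 22.4 at 32 or more; Smoc2 is higher in both libraries once Col10a1 is present.

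Mixed-zone cells gave the same signs as surface cells in both libraries, and deeper-zone cells did in pulse. The Col10a1-high classes held under 50 cells in trace mixed-zone and in pulse deeper-zone cells. In mixed-zone cells the high-over-low ratio of Sparc was 0.633 in trace (24 and 73 cells) and 1.72 in pulse (81 and 142 cells). In deeper-zone cells 3 trace cells were Col10a1-high, too few to describe. In pulse 43 deeper-zone cells were, with 30080 CPM against 16480 CPM in 610 Col10a1-low cells. A division of deeper-zone cells at 4 UMIs of Ibsp, which encodes bone sialoprotein of mineralizing cartilage and bone, was chosen after its values were seen. In trace 19 Ibsp-high cells had 24280 Sparc CPM and 121 other cells 16110 CPM. In pulse 24 Ibsp-high cells had 45580 CPM and 629 other cells 16460 CPM. Without the Ibsp-high cells, then, deeper-zone Sparc was 16110 CPM in trace and 16460 CPM in pulse, although Ibsp itself was at 2875 CPM in trace deeper-zone cells and 154.9 CPM in pulse deeper-zone cells.

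Genes named for hypertrophic cartilage did not move as 1 group with Col10a1. In pulse surface cells 4 of the 5 that reached 20 CPM were 2-fold or more higher in Col10a1-high cells (Col10a1 by construction, Spp1, Ibsp and Runx2), against a background of 2.28% of 6273 genes higher and 2.17% lower. In trace surface cells 2 of 5 were higher (Col10a1 by construction and Spp1) and Ibsp was lower, against 1.29% of 5801 genes higher and 0.983% lower. Spp1, which encodes osteopontin, had 1686 CPM in trace high and 606.8 CPM in trace low cells, and 986.1 CPM in pulse high and 339.4 CPM in pulse low cells. Ibsp had 150.3 CPM in trace high and 379.7 CPM in trace low cells, and 449.1 CPM in pulse high and 110.8 CPM in pulse low cells. Runx2, a transcription factor of hypertrophy and bone, had 12.1 CPM in trace high and 20.4 CPM in trace low cells, and 39.4 CPM in pulse high and 15.3 CPM in pulse low cells. Runx2 was compared in pulse only because it reached 20 CPM in high cells, so the floor itself favoured a higher call. In trace it was compared only through the low cells. Ibsp and Runx2 thus had opposite signs in the libraries, as Sparc had, and Spp1 had not; the difference between libraries was not tested. Among the members, Sparc and Smoc2 were past 2-fold higher in pulse Col10a1-high cells, and Smoc2 alone in trace.

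Smoc2 was past 2-fold higher in Col10a1-high surface cells of both libraries. In surface chondrocytes it was at 1155 CPM in trace (1140 to 1169) and 1610 CPM in pulse (1588 to 1632), a ratio of 0.717 (0.704 to 0.731). Trace Col10a1-high cells had 2082 Smoc2 CPM and trace Col10a1-low cells 756.8 CPM, a ratio of 2.75 (2.68 to 2.82). Pulse Col10a1-high cells had 2322 CPM and pulse Col10a1-low cells 1097 CPM, a ratio of 2.12 (2.06 to 2.18). A higher high-over-low ratio than that of Smoc2 was found for 24 of 5801 genes in trace and 122 of 6273 genes in pulse. The ratio ran from 2.50 to 3.28 over the bands of cell depth in trace and from 1.51 to 2.31 in pulse. Graded by Col10a1, Smoc2 went through 634.4, 1233, 1637, 2002, 2139, 2156 and 2059 CPM in trace and 942.2, 1459, 1992, 2273, 2467, 2277 and 2301 CPM in pulse, so that most of the gain lay below 8 Col10a1 UMIs. In Col10a1-high cells alone Smoc2 was close between the libraries, with a trace-over-pulse ratio of 0.897 (0.875 to 0.919), against 0.690 (0.671 to 0.710) in Col10a1-low cells.

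Smoc2 was mostly a gene of surface cartilage. Of its UMIs, 95.9% in trace and 95.4% in pulse lay in the chondrocyte gates. These gates also held most UMIs of all genes. The surface gate alone held 21840901 of 39286993 kept UMIs in trace and 12367390 of 23081284 in pulse. Mixed-zone cells had 796.4 CPM in trace and 806.1 CPM in pulse, a ratio of 0.988 (0.902 to 1.08). Deeper-zone cells had 93.4 CPM in trace and 171.5 CPM in pulse, a ratio of 0.545 (0.433 to 0.677). Npy and Angptl7 cells had 321.9 CPM in trace and 377.7 CPM in pulse, and the 106 trace osteoblast-gated cells had 137.9 CPM. Synovial lining had 8.29 CPM in trace and 17.6 CPM in pulse, near the 13.5 CPM of trace leukocyte-gated cells. A Smoc2 UMI was found in 2840 of 4464 trace and 2895 of 3860 pulse surface cells, and after thinning in 57.5% and 73.0%, against 2.81% of trace leukocyte-gated cells.

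Smoc1, like Smoc2, was highest in surface chondrocytes, then in mixed-zone and in Npy and Angptl7 cells. In synovial lining it stood above Smoc2, at 24.9 CPM in trace and 36.6 CPM in pulse. Surface chondrocytes had 209.2 CPM in trace (203.2 to 215.4) and 285.6 CPM in pulse (276.2 to 295.2), a ratio of 0.733 (0.701 to 0.766). Mixed-zone cells had 127.9 CPM in trace and 132.7 CPM in pulse, and deeper-zone cells 37.4 and 38.7 CPM; neither ratio differed from 1 beyond counting error, at 0.963 (0.764 to 1.21) and 0.964 (0.656 to 1.38). In the 106 trace osteoblast-gated cells no Smoc1 UMI was read (exact upper bound 10.4 CPM), although Smoc2 was present in them. By Col10a1, Smoc1 was nearly flat: 196.1 CPM in trace high and 214.9 CPM in trace low cells (ratio 0.912, 0.855 to 0.974), and 315.6 CPM in pulse high and 264.0 CPM in pulse low cells (ratio 1.195, 1.118 to 1.278). After thinning, a Smoc2 UMI was found in 61.4% of trace surface cells with a Smoc1 UMI and 55.9% of those without, and in 80.6% and 68.9% of the same cells in pulse. Smoc2 was thus read only somewhat more often in cells with a Smoc1 UMI, in both libraries. Both were read in 18.0% of thinned trace and 27.7% of thinned pulse cells, and many cells gave Smoc2 alone.

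Sparcl1 was highest in mural cells and synovial lining, where Smoc2 was near background. Mural cells, the contractile cells around vessels, had 1024 CPM in 203 trace cells (937.2 to 1118) and 817.8 CPM in 19 pulse cells (534.2 to 1198). Synovial lining had 774.4 CPM in trace (746.4 to 803.1) and 653.5 CPM in pulse (596.5 to 714.5), a ratio of 1.19 (1.08 to 1.31). Endothelial cells had 159.7 CPM in trace and 121.7 CPM in pulse, and loose connective tissue 72.7 and 55.0 CPM. In surface chondrocytes Sparcl1 was at 39.1 CPM in trace (36.5 to 41.8) and 18.5 CPM in pulse (16.2 to 21.1), a ratio of 2.11 (1.82 to 2.45). By Col10a1, Sparcl1 was lower in the high class of both libraries, within 2-fold: 32.6 CPM in trace high and 41.8 CPM in trace low cells (ratio 0.780, 0.665 to 0.912), and 14.7 CPM in pulse high and 21.3 CPM in pulse low cells (ratio 0.689, 0.516 to 0.913). Without the 5% of cells with the most UMIs the log2 trace-over-pulse ratio was 0.84, against 1.08 with them, which is no longer 2-fold. A Sparcl1 UMI was found in 9.83% of trace and 4.07% of pulse surface cells, and after thinning in 5.34% and 2.63%. In trace leukocyte-gated cells, with a lower median depth, it was found in 1.17%. Synovial lining markers in the surface gate summed to 377.1 CPM in trace and 373.1 CPM in pulse, and mural markers to 205.0 and 411.3 CPM. The lining list differed little between libraries and the mural list was lower in trace. Lining cells were 8.88% of kept cells in trace and 4.44% in pulse, and mural cells 2.2% and 0.291%. The part of RNA from these cell types in the Sparcl1 difference was not tested. In the chondrocyte gates lay 14.8% of Sparcl1 UMIs in trace and 28.2% in pulse. The surface gate alone held 48.3% of kept cells in trace and 59.1% in pulse. A Sparc and a Sparcl1 UMI were found together in 58.7% of thinned trace lining cells and 55.7% of thinned pulse lining cells.

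The 3 testican genes were almost unread. Over all kept cells Spock1 gave 11 UMIs in trace and 23 in pulse, Spock2 gave 48 and 55, and Spock3 gave 19 and 29. None reached 20 CPM in a gate with 50 or more cells in either library. Spock2 was highest in osteoblast-gated cells, at 16.9 CPM in trace (6.20 to 36.8; 6 UMIs in 106 cells), with 1 UMI in 23 pulse cells. It was next in deeper-zone chondrocytes, at 6.23 CPM in trace (2.28 to 13.6) and 5.04 CPM in pulse (3.26 to 7.45), against 0.778 CPM in trace and 1.70 CPM in pulse surface cells. Spock1 was read in 2 of 140 trace and 11 of 653 pulse deeper-zone cells, at 2.08 and 2.82 CPM. Spock3 gave 8 UMIs in 5 trace lining cells and 5 UMIs in 3 pulse lining cells. At these counts differences between libraries within a gate were not detectable for Spock1 in deeper-zone cells (ratio 0.735, 0.0810 to 3.20), Spock2 in deeper-zone cells (1.23, 0.414 to 3.08) or Spock3 in lining (0.316, 0.0911 to 1.23). In surface cells Spock2 had 17 trace and 21 pulse UMIs, a ratio of 0.458 (0.227 to 0.912), and Spock3 had 6 trace and 18 pulse UMIs, a ratio of 0.189 (0.0613 to 0.496). Each of these was below the level at which genes were compared.

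Genes that act with the family were counted from lists, in surface chondrocytes first. Of all 6236 genes compared there, 2.34% were 2-fold or more higher in trace and 8.85% lower. Of 11 genes (10 collagen chains and Serpinh1, a collagen chaperone) that SPARC binds or works with, 9 reached 20 CPM, 2 were 2-fold or more higher in trace and 1 lower, with a median log2 ratio of 0.27 against -0.23 over all genes. Col1a1, the main chain of type I collagen, had 497.6 CPM in trace and 70.2 CPM in pulse; its partner Col1a2 had 430.2 and 199.6 CPM. Col4a2, a basement membrane chain, had 16.4 CPM in trace and 40.1 CPM in pulse, and Col8a1 had 42.7 and 24.3 CPM. Col4a2 was compared only because it reached 20 CPM in pulse, so the floor itself favoured a lower call. Summed over surface cells, type I collagen chains were thus higher in the trace library, in which Sparc was lower. From cell to cell within a library Col1a2 went with Sparc instead, with r of 0.35 in trace and 0.16 in pulse.

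The BMP list bears on the SMOC genes. Of 15 ligands, receptors, antagonists and readouts 9 reached 20 CPM, with 2 higher and 2 lower in trace. Over all genes 2.34% were higher and 8.85% lower. The list had a median log2 ratio of -0.40, against -0.23 over all genes. Bmp2 had 1517 CPM in trace and 4298 CPM in pulse, and Bmp5 had 335.0 and 953.2 CPM, both past 2-fold lower. The transcriptional readouts Id2, with 523.8 CPM in trace and 216.1 CPM in pulse, and Id3, with 66.3 and 23.9 CPM, were past 2-fold higher. These ligand genes and these readout genes thus stood on opposite sides, while Smoc1 and Smoc2 were within 2-fold.

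Of 21 other matricellular genes 11 reached 20 CPM and none was past 2-fold in either direction in surface cells. Over all genes 2.34% were higher in trace and 8.85% lower. The list had a median log2 ratio of 0.28, against -0.23 over all genes. Thbs1 (thrombospondin 1) had 467.9 CPM in trace and 915.6 CPM in pulse, and Tgfbi, Fbln7 and Thbs3 had log2 ratios of 0.84, 0.68 and 0.62. Of 12 proteases and inhibitors, which bear on the testicans, 9 reached 20 CPM and 1 was higher: Timp1, an inhibitor of matrix metalloproteinases, with 453.7 CPM in trace and 186.5 CPM in pulse. Ctsl (cathepsin L) had 103.6 and 53.4 CPM, within 2-fold, and Mmp14 and Mmp13 had log2 ratios of 0.68 and 0.66. Of 6 SPARC receptor and uptake genes 3 reached 20 CPM and none was past 2-fold; Itgav, Itga5 and Itgb1, which encode integrin chains, had log2 ratios of -0.43, -0.30 and 0.12. Stab1, the scavenger receptor that clears SPARC, was below that level.

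Between Col10a1-high and Col10a1-low surface cells the collagen-list genes past 2-fold were lower in both libraries. Over all genes compared, 1.29% were higher and 0.983% lower in trace, and 2.28% and 2.17% in pulse. In trace 4 of 8 compared were 2-fold or more lower in Col10a1-high cells (Col1a1, Col1a2, Col3a1, Col8a1) and none higher, with a median log2 of -1.12 against -0.10 over all genes. In pulse 4 of 9 were lower (again Col1a1, Col1a2, Col3a1 and Col8a1) and none higher, with a median of -0.87 against -0.16. Col1a1 had 221.2 CPM in trace high and 616.2 CPM in trace low cells, and 19.5 CPM in pulse high and 106.7 CPM in pulse low cells. Of the proteases and inhibitors 9 were compared in trace, with 1 higher (Timp3) and 1 lower (Mmp14, 13.3 CPM in high and 28.6 CPM in low cells), and 7 in pulse, with 1 higher (Timp3). Mmp14 in trace and Col1a1 in pulse reached 20 CPM in low cells only, so the floor itself favoured a lower call. Timp3, a matrix-bound protease inhibitor, had 1064 CPM in trace high and 440.5 CPM in trace low cells, and 1410 CPM in pulse high and 618.3 CPM in pulse low cells. Of the other matricellular genes 12 were compared in each library. In trace 1 was 2-fold or more higher in Col10a1-high cells (Spp1) and 1 lower (Thbs4), and in pulse 2 were higher (Spp1 and Thbs2) and 4 lower (Thbs4, Fstl1, Tgfbi and Tnxb). None of the 9 BMP genes compared was past 2-fold by Col10a1 in either library.

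In deeper-zone cells, where Sparc was level between libraries, 5 of 8 collagen-list genes were 2-fold or more higher in trace and none lower, against 3.21% of all genes higher and 20.7% lower. The list's median log2 ratio was 1.21 against -0.40 over all genes. Col1a1 had 535.3 CPM in trace and 25.6 CPM in pulse, and Col3a1 had 125.5 and 14.1 CPM. Col3a1 was compared only because it reached 20 CPM in trace, so the floor itself favoured a higher call. Osteoblast markers in the same gate summed to 569.6 CPM in trace and 241.9 CPM in pulse, and their part in these values was not tested.

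Surface chondrocytes ordered by their share of Sparc showed which genes went with it. They were divided into 4 equal classes, of 1116 cells each in trace and 965 in pulse, and CPM was taken here over UMIs other than Sparc. In the class with the most Sparc Col10a1 stood at 2214 CPM in trace and 10520 CPM in pulse. In the class with the least Sparc it stood at 2190 CPM in trace and 1498 CPM in pulse. Smoc2 was lower in the top than in the bottom Sparc class in trace, at 910.2 against 1525 CPM, and higher in pulse, at 2168 against 1412 CPM. Prg4, the lubricin gene and itself a marker of the gate, was lower in the top class of both libraries, at 20130 against 33260 CPM in trace and 5731 against 9824 CPM in pulse. Across cells within a library the gene with the highest correlation with Sparc was Col2a1 in both, with r of 0.39 over 4464 trace cells and 0.39 over 3860 pulse cells; it too is a gate marker. In trace the next were Col1a2, Comp, Cilp2, Bgn, Col6a1, Ibsp and Igfbp7, with r from 0.28 to 0.35. In pulse they were Col11a1, Ibsp, Mia, Col10a1, Snorc, Wif1 and Mfge8, with r from 0.31 to 0.38. Col10a1 had an r of -0.10 in trace and 0.35 in pulse, and Smoc2 -0.17 and 0.18. These cells share a library and their depth, so the coefficients describe them and carry no test.

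Over the 16 gate-by-library groups with 50 or more cells, genes whose log2 (CPM + 1) followed Sparc closely were Sox6, Gstm5, Adgra3, Chsy3, Zfp9, Col16a1 and B4galnt3, with Pearson r between 0.91 and 0.92 among 10233 genes compared. Sox6, a transcription factor of the chondrocyte programme, ranged from 5.99 to 677.7 CPM over these groups. Among the members Smoc2 was nearest to Sparc, with an r of 0.68, then Smoc1 with 0.51, and Sparcl1 had -0.35. Smoc1 and Smoc2 had an r of 0.70 with each other, and Sparcl1 and Smoc2 -0.58. The groups come in pairs from the same gates and from 2 libraries, so these too are descriptions. Cells that passed no gate or several had 3596 Sparc CPM in 1993 trace cells and 15170 CPM in 1072 pulse cells, lower in trace as in surface chondrocytes.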

How the data were processed

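The deposited matrices hold whole-number counts of UMIs per gene and cell, per the file headers from Cell Ranger 7.1.0; the submitters' processing notes name Cell Ranger 3.0.1 and mm10. The labels give a 3′ kit, so a UMI counts a molecule and levels were not divided by length. From these counts cells with 500 or more genes and at most 10% mt- UMIs were kept. Chondrocyte gates required at least 4 of 8 chondrocyte markers with 4 of 8 surface or 5 of 9 deeper-zone markers. They left out cells with 2 or more of the 3 Npy and Angptl7 markers. Other types required 3 markers of the type with fewer than 4 chondrocyte markers. The Npy and Angptl7 gate required 2 of its 3 markers, set no limit on chondrocyte markers and left out cells passing another non-chondrocyte gate. Cells passing several gates were left out and no doublet caller was run. The number of markers needed was set after marker counts were seen. UMIs were summed per gate and library with Python 3.11.15, numpy 2.4.6 and scipy 1.17.1. Ratios carry exact conditional Poisson intervals, and a 0 was set at 3 UMIs per group. Named genes were up to 4 per list with the largest ratio, and the 8 most like Sparc, of which 1 is not reported here. The members and lists were chosen with earlier results of these data known. The steps were checked on simulated data. Mice were pooled, and each comparison sets 1 library against another.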

Additional observations from a re-analysis of the deposited data

Results flagged for a closer look

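Some genes had opposite signs between libraries when Col10a1-high surface chondrocytes were set against Col10a1-low ones, each beyond counting error; the difference between libraries itself was not tested, with 1 library per group. Sparc had a log2 high-over-low ratio of -0.28 in trace and 1.10 in pulse, in sums over all cells of a class. In sums by band of cell depth, the lower trace Sparc was seen only in cells with 4500 or more UMIs and not in shallower ones. With the Col10a1 division made after thinning, the trace value was -0.070. Smoc1 had -0.13 in trace and 0.26 in pulse. Ibsp had -1.34 in trace and 2.02 in pulse. Runx2 had -0.76 in trace and 1.36 in pulse. Alpl (tissue non-specific alkaline phosphatase), which stayed below 20 CPM and is an osteoblast gate marker, had -1.18 in trace and 1.87 in pulse. Prg4, a marker of the gate, had 0.36 in trace and -0.36 in pulse.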

How the results depend on the processing

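The log2 trace-over-pulse ratio of Sparc in surface chondrocytes, -3.06, kept its sign and stayed past 2-fold under all 11 alternatives run; it was -3.08 with 1000 or more genes per cell, -3.11 with 1 more marker per gate, -2.83 scaled by the median ratio, -2.94 without ribosomal RNA-associated transcripts, -3.11 without the SPARC family in the total and -2.99 as the mean over cells. With settings chosen after the data were seen it was -2.96 with mixed-zone cells, -2.60 over chondrocytes of any zone and -3.08 less the leukocyte level. Genes 2-fold or more higher in trace were 146, and 282 scaled by the median ratio; genes lower were 552, and 359 scaled by the median ratio, 864 at a floor of 10 CPM and 290 at a floor of 50 CPM. The Sparc log2 high-over-low ratio in trace, -0.28, was -0.37 with the Col10a1 division at 2 UMIs, -0.18 at 8, -0.070 after thinning, -0.25 at 1000 CPM per cell, -0.31 with 1000 or more genes and -0.18 as the mean over cells. In pulse, at 1.10, it was 1.08 at 2 UMIs, 1.13 at 8, 1.09 after thinning, 1.09 at 1000 CPM, 1.08 with 1000 or more genes, 1.17 without Sparc and Col10a1 in the total, 1.15 as the mean over cells and 1.05 with 1 more marker. The log2 ratio of median Sparc per cell was 0.00 in trace and 1.82 in pulse on raw UMIs, and -0.57 and 1.499 per 10000 UMIs. The causes of these shifts were not tested. Sparc in deeper-zone cells ranged from -0.06 to 0.39 over 9 alternatives, and Smoc2 in surface cells from -0.58 to -0.08 over 10. Sparcl1 in surface cells ranged from 0.84 to 1.33, and was under 2-fold without the 5% of cells with the most UMIs and with 1 more marker. No paired analysis was possible because each group was 1 library.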
